A study of Mus musculus with 10 samples.

Results

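The lower glycolysis genes considered here were Aldoa, Aldoc, Tpi1, Gapdh, Pgam1, Eno1, Eno2 and Pkm, and every peak that the deposited annotation gave to 1 of these symbols was taken. The rule that assigns peaks uses annotation alone, although the genes were chosen with earlier results of these data known. It gave 16 peaks of 108253 in all and 8 genes of 25400. Of the 16 peaks, 9 were promoter peaks, out of 17144 promoter peaks in the table, and 7 lay elsewhere, 5 of them in Pkm and 2 at Eno1. Aldoa had 2 promoter peaks and each of the other genes had 1.

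Retinas of wild-type C57BL/6J mice at postnatal day 28, freed of sclera and pigment epithelium, were kept as explants for 48 hours in medium with 5 mM or 25 mM glucose. CUT&Tag, which cuts and tags DNA where an antibody has bound a modified histone, was carried out on 500000 dissociated cells per assay. At each glucose level there were 3 libraries for H3K18La, histone H3 lactylated on lysine 18, and 2 for H3K27Ac, histone H3 acetylated on lysine 27. The labels do not divide them into batches, and the sources used here do not state whether they were processed together. The series is described as biologically replicated, but no label says which libraries came from separate animals, so p-values measure the spread between these libraries, which may be in part technical. In whole retina, fewer cells of a type and less mark per cell cannot be told apart.

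Lower glycolysis turns fructose bisphosphate into pyruvate and is the stage at which the pathway yields ATP and reduces NAD. Pyruvate is then oxidised in mitochondria or reduced to lactate, and photoreceptors are known for making much lactate even with oxygen present. Lactate is the source of the lactyl group on histones, whereas H3K27Ac is a mark of active promoters and enhancers.

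Values are RPKM, the reads in a peak scaled by the length of the peak and by the reads of the library. From 1358008 to 5182766 reads stood behind an H3K18La library and from 4324289 to 7424470 behind an H3K27Ac library, as worked back from the RPKM values. The sources used here do not state whether normalization factors entered these denominators, and if they did, the denominators, the shares in peaks and the totals below are not per sequenced read. The share of these reads that fell in peaks moved with glucose. The peak set may have been called on H3K18La in other retinas, so this is the share within a given set of regions. It was 11.9% ± 0.0965 (SD, n = 3) at 5 mM and 32.6% ± 2.08 (n = 3) at 25 mM for H3K18La, and 26.3% ± 7.35 (n = 2) and 63.0% ± 9.19 (n = 2) for H3K27Ac. Its part in the changes below was not tested beyond rescaling the values to the reads in peaks. As a check of the tissue, all 7 rod markers had a promoter peak, with a summed H3K27Ac level of 47.8 to 85.7 RPKM at 5 mM and 227 to 412 at 25 mM, against 1 of 5 microglial markers, C1qa, at 0.332 to 1.04 and 1.06 to 1.50. The summed H3K27Ac of 4 of 5 Muller glia markers was 11.5 to 13.6 and 26.1 to 32.4 RPKM. That of 2 of 6 pigment epithelium markers was 3.71 to 5.81 and 8.40 to 12.1, in tissue from which that layer had been taken off. The summed H3K18La of these 2 markers was 2.17 to 10.6 RPKM at 5 mM and 11.8 to 19.0 at 25 mM. The 7 rod markers summed to 11.7 to 15.3 and 56.0 to 138, and the medians per marker at 5 mM were 2.75 and 2.03 RPKM. Rgr carried most of the pigment epithelium sum, at 4.76 ± 5.09 RPKM (SD, n = 3) and 13.0 ± 4.21, with Best1 at 0.734 ± 0.715 and 1.77 ± 0.463. C1qa had 1.07 ± 0.568 RPKM of H3K18La at 5 mM and 2.67 ± 1.05 at 25 mM, and the lowest rod marker 0.698 ± 0.339 and 7.37 ± 4.74.

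The sequences below are those of the peaks that stood furthest apart among the members, all from GRCm38 and written 5′ to 3′ on the strand of the gene. They are the 250 bases before a RefSeq start of Eno1, with the highest promoter H3K18La (chr4:150236458-150236707, plus strand), and of Pgam1, with the lowest (chr19:41911621-41911870, plus strand), the 250 bases before a RefSeq start of Aldoa in its downstream promoter peak (chr7:126799255-126799504, minus strand), and the central 300 bases of the first and second peaks within intron 1 of Pkm (chr9:59660312-59660611 and chr9:59661276-59661575, plus strand), where H3K18La rose most. Capitals mark the GC box GGGCGG, the core of the hypoxia response element ACGTG and the TATA box TATAAA, each searched on both strands. The Eno1 stretch shown is 1 of 3 windows in its peak and holds none of them, while the other two overlap each other and hold 3 GC boxes each.
Eno1 promoter: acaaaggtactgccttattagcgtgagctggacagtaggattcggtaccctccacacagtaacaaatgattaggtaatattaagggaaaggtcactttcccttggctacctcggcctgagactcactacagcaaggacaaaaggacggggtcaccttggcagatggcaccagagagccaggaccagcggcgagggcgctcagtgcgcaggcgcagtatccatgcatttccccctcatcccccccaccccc
Pgam1 promoter: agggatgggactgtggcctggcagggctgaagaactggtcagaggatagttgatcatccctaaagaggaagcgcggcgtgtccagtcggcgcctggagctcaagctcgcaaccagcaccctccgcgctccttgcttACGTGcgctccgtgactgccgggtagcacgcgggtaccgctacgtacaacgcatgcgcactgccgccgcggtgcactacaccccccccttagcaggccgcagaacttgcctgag
Aldoa downstream promoter: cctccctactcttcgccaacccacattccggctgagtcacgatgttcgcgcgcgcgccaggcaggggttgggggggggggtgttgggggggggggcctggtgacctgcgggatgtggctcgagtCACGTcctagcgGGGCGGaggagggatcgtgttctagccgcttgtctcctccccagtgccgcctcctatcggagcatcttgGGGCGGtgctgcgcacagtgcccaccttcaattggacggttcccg
Pkm first intron 1 peak: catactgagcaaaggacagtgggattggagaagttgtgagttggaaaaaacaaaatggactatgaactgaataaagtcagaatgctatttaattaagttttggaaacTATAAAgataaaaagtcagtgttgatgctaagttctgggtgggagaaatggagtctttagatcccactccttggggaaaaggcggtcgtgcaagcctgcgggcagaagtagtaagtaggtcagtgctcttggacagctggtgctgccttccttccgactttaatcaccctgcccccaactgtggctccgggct
Pkm second intron 1 peak: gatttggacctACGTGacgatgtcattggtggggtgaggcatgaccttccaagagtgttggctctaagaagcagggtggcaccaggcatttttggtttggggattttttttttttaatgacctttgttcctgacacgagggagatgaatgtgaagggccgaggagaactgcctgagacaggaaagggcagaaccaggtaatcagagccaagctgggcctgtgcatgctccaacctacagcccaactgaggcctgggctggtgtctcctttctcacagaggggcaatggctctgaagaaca

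Over 11 RefSeq promoter windows of 300 bases that lay at the member peaks, the GC box was in 8, from 6 of the 8 genes, and in 35.7% of all 32851 windows. The hypoxia core was in 5 windows, from 4 genes, and in 19.6% of all. The full E-box CACGTG, which contains that core, was in 0 of the 11 and in 7.15% of all. Not every window of that background lies at a peak. In the central 300 bases of peaks, the GC box was in 5 of the 9 member promoter peaks against 44.9% of all promoter peaks, the hypoxia core in 4 against 21.9% and the E-box in 1 against 6.44%. Such a match describes the letters of the window alone, and neighbouring windows of 1 gene share sequence. The median GC content of the 9 promoter peaks was 58.2%, close to the 57.5% of all promoter peaks, and that of the other 7 was 52.7% against 48.8%.

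**Figure D1:**
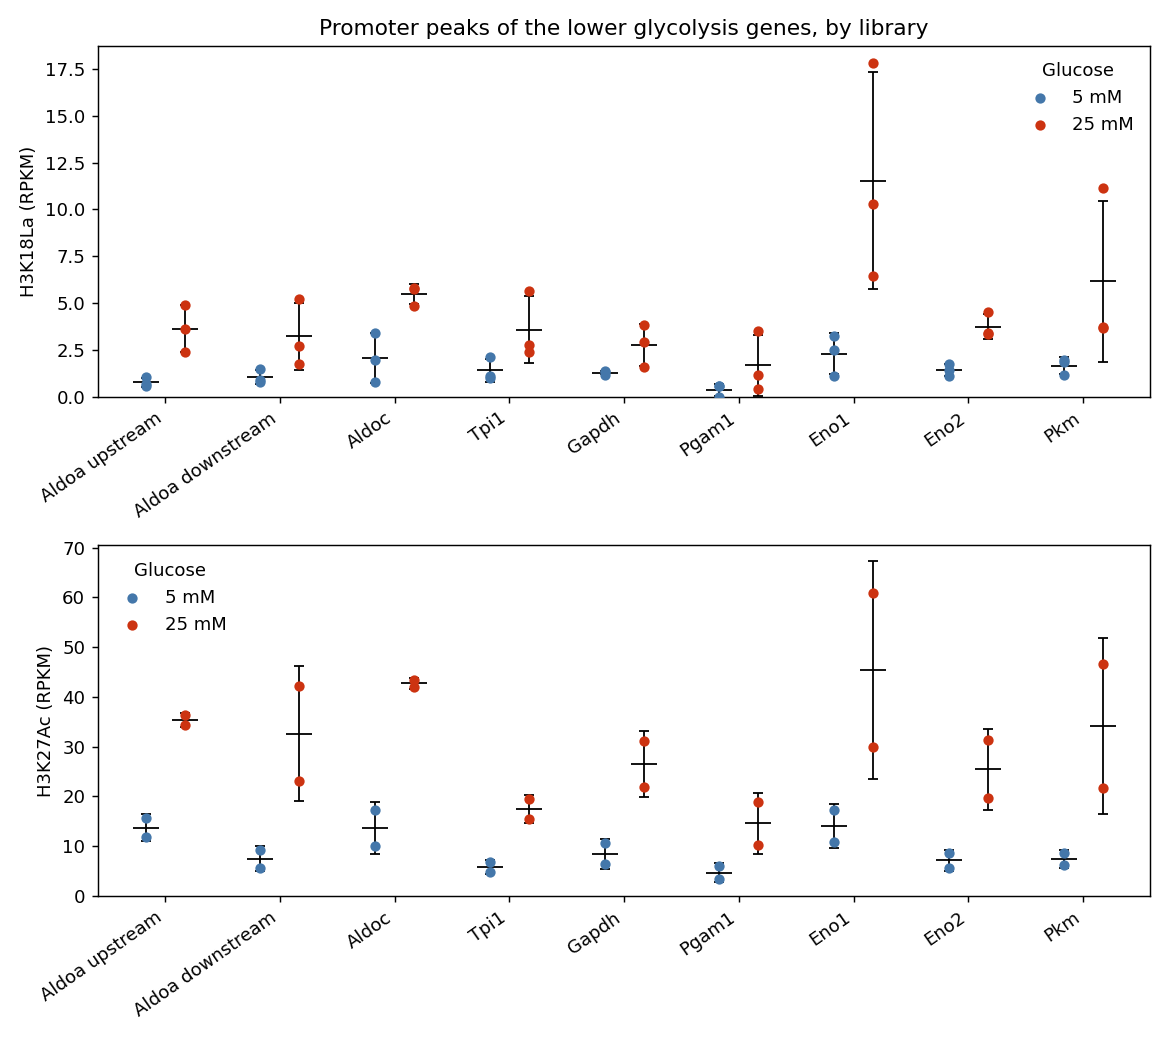
RPKM of H3K18La (top) and H3K27Ac (bottom) at the 9 promoter peaks, with 1 point per library, a bar at the mean and error bars of 1 SD (3 libraries per glucose level for H3K18La, 2 for H3K27Ac). H3K18La at Pgam1 is the only promoter signal in which the glucose levels overlap, and the Eno1 promoter has the highest mean in all 4 groups among the strongest promoter peaks.

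At 25 mM glucose H3K18La was higher at 9 of the 15 member peaks that could be fitted, and lower at none. The 9 were the promoters of Eno1, Eno2, Aldoc and Pkm, the upstream promoter of Aldoa, and 4 peaks within Pkm. Of all 65614 peaks fitted, 37.3% were called higher, and of the promoter peaks alone 33.3%. A call is an adjusted p under 0.05 from limma over all peaks with a mean of at least 1 RPKM, on the scale log2(RPKM + 0.5), which understates the change of weak peaks. That mean is over both glucose levels, so a peak with a lower mean at 5 mM could be fitted through its 25 mM values, in the lists below too. Among the members this held for the Aldoa upstream promoter and the second Pkm intron 1 peak (0.754 and 0.864 RPKM at 5 mM), both called. It also held for the Pgam1 promoter, the Pkm exon 8 peak and the Eno1 intergenic peak, which were not called. The median member change was 1.37 on that scale, and 1.10 over all peaks. H3K27Ac was higher at 15 of 16 member peaks, against 33.9% of all 72442 peaks and 57.0% of promoter peaks, with a median member change of 1.62 and of 0.84 over all peaks. Among peaks with a mean of at least 2 RPKM, H3K18La was called higher at 9 of 12 member peaks and at 22656 of all 33057. The medians were then 1.42 and 1.44. For H3K27Ac the counts were 15 of 16 and 24870 of 47841, with medians of 1.62 and 1.06. With the first 25 mM library left out the H3K18La count fell to 4, and with the second to 5, while the calls over all peaks fell from 24539 to 17066 and 15440. Without the first or the second 25 mM library of H3K27Ac it was 0, and 10 and 944 of all peaks were called instead of 24698. When values were divided by the reads in peaks instead of all reads, 0 member peaks and 0 of all peaks were called in either mark by limma (7636 H3K18La and 12491 H3K27Ac peaks had an unadjusted p under 0.05). Centred on the median peak, 0 member peaks were called, with 1040 of all peaks for H3K18La and 1144 for H3K27Ac.

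The aldolases split fructose bisphosphate. Aldoa, the widespread form, had an upstream promoter peak (chr7:126808675-126809380, within the neighbouring gene Fam57b, and assigned to a second Ensembl gene of the same symbol through a nonsense-mediated decay transcript) and a downstream one (chr7:126797175-126800102, which holds a Fam57b start as well). At the upstream peak H3K18La was 0.672, 0.547 and 1.04 RPKM at 5 mM and 3.60, 4.88 and 2.39 at 25 mM. The groups did not overlap, and the change was 1.69 ± 0.43 (SE, limma adjusted p = 0.0106, or 0.0762 without the second 25 mM library). These values rested on few reads, 1 to 2 per library at 5 mM and 5 to 14 at 25 mM. H3K27Ac there went from 11.8 and 15.7 to 36.4 and 34.3, a change of 1.34 ± 0.53 (adjusted p = 0.0380). At the downstream peak H3K27Ac was 5.69 and 9.29 at 5 mM and 42.2 and 23.0 at 25 mM (2.03 ± 0.51, limma adjusted p = 0.00202), whereas its H3K18La, 1.46, 0.857 and 0.754 against 5.21, 2.69 and 1.73, did not pass the test (1.20 ± 0.46, adjusted p = 0.0603, or 0.00178 with voom on recovered reads). The difference between the marks there did not pass either (-0.82 ± 0.65, adjusted p = 0.906).

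Aldoc encodes the brain form of the enzyme, and its promoter peak was at chr11:78322676-78323651. H3K18La was 3.40, 1.98 and 0.754 RPKM at 5 mM and 5.73, 5.80 and 4.84 at 25 mM. The 25 mM libraries lay close together and above all 5 mM libraries (1.37 ± 0.43, limma adjusted p = 0.0277), though the call was lost when any 1 library other than the first 5 mM one was left out (adjusted p up to 0.0859). H3K27Ac rose from 9.95 and 17.3 to 43.4 and 42.0 (1.66 ± 0.54, adjusted p = 0.0122).

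Triose phosphate isomerase (Tpi1) and glyceraldehyde phosphate dehydrogenase (Gapdh), the enzyme that reduces NAD, gained H3K27Ac but did not pass the test for H3K18La, although both passed with voom on recovered reads (adjusted p = 0.0219 and 0.0210). Both lie near Eno2 on chromosome 6, with 43.1 kb between the peaks of Eno2 and Tpi1 and 349.6 kb between those of Tpi1 and Gapdh. At the Tpi1 promoter (chr6:124813306-124814659) H3K18La was 2.10, 0.998 and 1.09 RPKM at 5 mM and 5.64, 2.36 and 2.74 at 25 mM (1.07 ± 0.44, limma adjusted p = 0.0750). At the Gapdh promoter (chr6:125164298-125167108) it was 1.35, 1.17 and 1.31, then 3.80, 2.89 and 1.56 (0.81 ± 0.42, adjusted p = 0.144). In both genes the 25 mM libraries lay above the 5 mM ones, with 1 of them close to the 5 mM range. H3K27Ac at Tpi1 rose from 4.78 and 6.78 to 19.4 and 15.4 (1.52 ± 0.49, adjusted p = 0.0122). At Gapdh it rose from 6.33 and 10.6 to 31.2 and 21.9 (1.61 ± 0.51, adjusted p = 0.0110).

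Pgam1, a phosphoglycerate mutase, had the weakest promoter peak in both marks (chr19:41911603-41913343). Its H3K18La was 0.545, 0.554 and 0 RPKM at 5 mM and 3.51, 1.13 and 0.387 at 25 mM. The groups overlapped, with 0 to 5 reads per library at 5 mM and 2 to 12 at 25 mM, and a change was not detectable at this depth (1.13 ± 0.79, limma adjusted p = 0.262). H3K27Ac was 3.32 and 6.10, then 18.9 and 10.3 (1.53 ± 0.48, adjusted p = 0.0101). A stretch making up 12.8% of this peak has 2 near-identical copies elsewhere in the genome.

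The enolases make phosphoenolpyruvate. Eno1, the form of most tissues, carried the strongest promoter peak (chr4:150236450-150237761). H3K18La there was 3.25, 2.50 and 1.12 RPKM at 5 mM and 17.8, 10.3 and 6.42 at 25 mM, so that the lowest 25 mM library stood above the highest 5 mM one. The change was 2.08 ± 0.43 (limma adjusted p = 0.00375), and this call, like those at both Pkm intron peaks, held without any 1 library. H3K27Ac rose from 10.9 and 17.2 to 60.8 and 30.0 (1.60 ± 0.54, adjusted p = 0.0153). The 2 other Eno1 peaks were weak. The peak over coding exons 10 and 11 (chr4:150247830-150248422) had 0 to 5 H3K18La reads per library and was not fitted, and its H3K27Ac went from 5.46 and 4.34 to 15.0 and 9.99 (1.25 ± 0.48, adjusted p = 0.0317). The intergenic peak downstream (chr4:150257029-150258316) passed in neither mark, at 0.70 ± 0.50 for H3K18La (adjusted p = 0.275) and 0.69 ± 0.43 for H3K27Ac (adjusted p = 0.188).

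Eno2, the neuronal enolase, had a wide promoter peak that also reached Lrrc23 (chr6:124767662-124770254). Its H3K18La was 1.10, 1.71 and 1.42 RPKM at 5 mM and 4.51, 3.32 and 3.38 at 25 mM (1.15 ± 0.37, limma adjusted p = 0.0308). The groups did not overlap, but the call was lost without the first 5 mM library and without each single 25 mM library (adjusted p up to 0.0950). H3K27Ac rose from 5.71 and 8.63 to 31.3 and 19.7 (1.75 ± 0.51, adjusted p = 0.00593).

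Pkm, the pyruvate kinase of most tissues, carried 6 of the 16 peaks, spread from the promoter (chr9:59655909-59657187) to the 3′ end of the gene. The largest H3K18La changes among the members were at 2 peaks within intron 1, 3413 to 4775 and 4855 to 5260 bases past the start. At the first (chr9:59659781-59661143) H3K18La was 1.74, 1.27 and 0 RPKM at 5 mM and 13.4, 6.68 and 6.93 at 25 mM (2.85 ± 0.55, limma adjusted p = 0.00280). At the second (chr9:59661223-59661628) it was 1.17, 1.43 and 0, then 7.52, 7.27 and 7.47 (2.76 ± 0.50, adjusted p = 0.00206). These changes were larger than those of 99.3% and 99.0% of all peaks fitted, a share not computed with a library left out. The second peak, with a mean of 0.864 RPKM at 5 mM, was fitted through its 25 mM values, so its 99.0% rests on few reads. The 0 in both peaks came from the third 5 mM library, the shallowest, and the second peak held 12 reads or fewer in every library and 3 or fewer at 5 mM. Without the third 5 mM library the changes were 2.18 and 2.14. H3K27Ac rose at both, by 1.98 ± 0.53 and 1.63 ± 0.52 (adjusted p = 0.00313 and 0.0110).

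At the Pkm promoter H3K18La was 1.85, 1.96 and 1.15 RPKM at 5 mM and 11.1, 3.65 and 3.69 at 25 mM (1.47 ± 0.45, limma adjusted p = 0.0255). The first 25 mM library stood apart from the other two, and without it the change was 0.97 (adjusted p = 0.102), while without the third 5 mM library it was 1.29 (adjusted p = 0.0511). H3K27Ac had its largest member change there, from 6.15 and 8.69 to 46.6 and 21.7 (2.05 ± 0.51, adjusted p = 0.00184). The peak annotated to a 5′ UTR (chr9:59663098-59664321) gained 1.12 ± 0.40 H3K18La (adjusted p = 0.0463), a call lost without any 1 library other than the first 5 mM one (adjusted p up to 0.142), and the peak over exons 10 and 11 and the 3′ UTR (chr9:59677488-59678912) 1.50 ± 0.45 (adjusted p = 0.0229, or 0.0593 without the second 5 mM library and 0.104 without the first 25 mM one). Near-identical copies, 8 in number, match 26.1% of that last peak, so its reads may be uncertain. At the exon 8 peak (chr9:59671966-59672590) H3K18La did not pass, at 1.48 ± 0.61 (adjusted p = 0.0739).

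**Figure D2:**
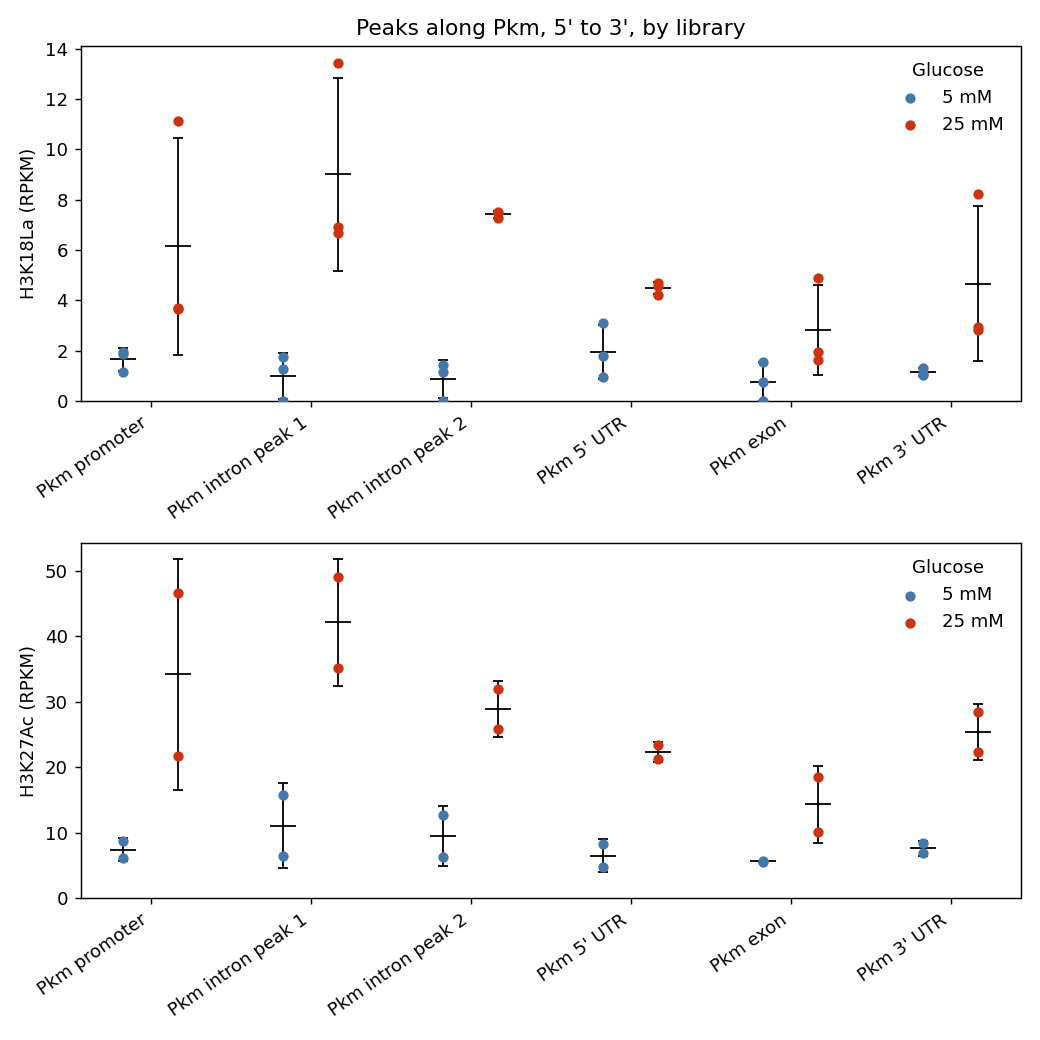
RPKM of H3K18La (top) and H3K27Ac (bottom) at the 6 Pkm peaks, ordered from the promoter to the 3′ end, with 1 point per library, a bar at the mean and error bars of 1 SD. At the second intron peak the 25 mM H3K18La libraries lie between 7.27 and 7.52 and the 5 mM libraries at or below 1.43.

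**Figure D3:**
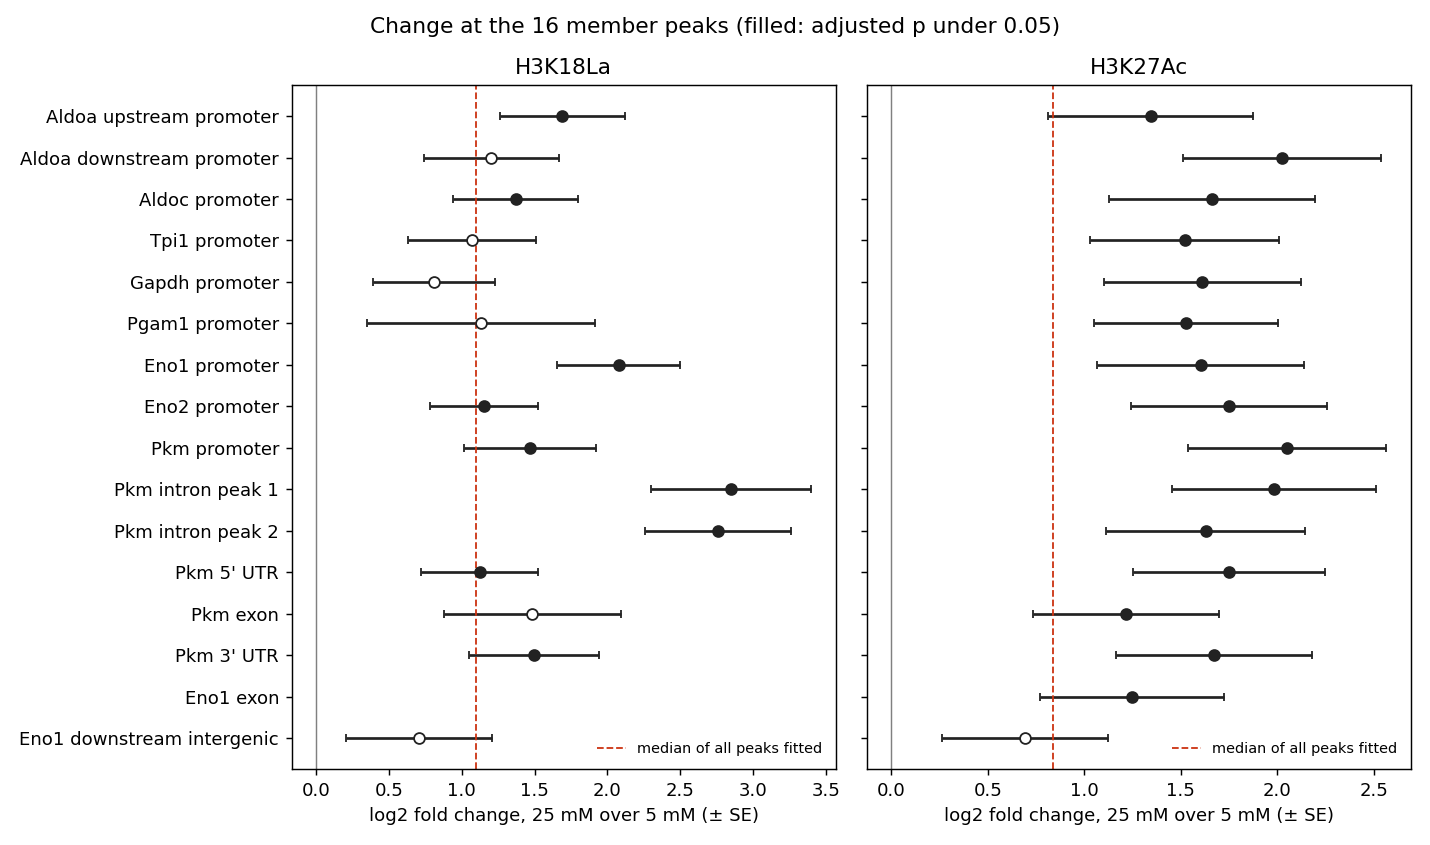
Change from 5 mM to 25 mM on the log2(RPKM + 0.5) scale, with its SE, at the member peaks; filled points passed limma at an adjusted p under 0.05, and the dashed line is the median of all peaks fitted, 1.10 for H3K18La and 0.84 for H3K27Ac. The Eno1 exon peak was not fitted for H3K18La, and for that mark the 2 Pkm intron peaks lie furthest to the right.

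Without any model, every 25 mM library lay above every 5 mM library at 14 of the 16 member peaks for H3K18La, where 36.6% of all peaks did so, and at 16 of 16 for H3K27Ac, where 53.0% did. Those shares include peaks too weak to be fitted, and the share of promoter peaks alone was not counted. The 2 exceptions were the Eno1 exon and the Pgam1 promoter. Whether the marks differed in their response was tested by an interaction over all 10 libraries, which called 0 member peaks by limma and 0.0% of 72467 peaks, with 0 members and 3650 peaks at an unadjusted p under 0.05. The estimates, H3K18La change minus H3K27Ac change, ran from -0.82 ± 0.65 at the downstream Aldoa promoter (adjusted p = 0.906) to 1.13 ± 0.72 at the second Pkm intron 1 peak (adjusted p = 0.903).

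In order of level at the strongest promoter peak of each gene (for Aldoa the upstream peak), H3K18La at 25 mM ran from Eno1 (11.5 ± 5.80 RPKM, SD, n = 3) through Pkm (6.16 ± 4.31), Aldoc (5.46 ± 0.537), Eno2 (3.74 ± 0.672), Aldoa (3.62 ± 1.24), Tpi1 (3.58 ± 1.79) and Gapdh (2.75 ± 1.13) to Pgam1 (1.67 ± 1.63). Only Aldoc and Eno2 were neighbours whose means differed by more than the larger SD. H3K27Ac at 25 mM ran from Eno1 (45.4 ± 21.8, n = 2) and Aldoc (42.7 ± 1.05) to Tpi1 (17.4 ± 2.82) and Pgam1 (14.6 ± 6.11). There the step from Aldoc to Aldoa (35.4 ± 1.48) alone exceeded the larger SD.

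Summed over the 16 peaks, H3K18La reads per 1000000 were 35.1, 28.7 and 19.9 at 5 mM and 142, 82.1 and 67.8 at 25 mM, a ratio of means of 3.49. The exact two-sided permutation test gave p = 0.10, the smallest that 3 against 3 libraries allow. H3K27Ac reads per 1000000 were 138 and 220, then 735 and 485, a ratio of 3.41 (exact permutation p = 0.333, the smallest for 2 against 2). By gene, the H3K18La ratio was between 2.16 (Gapdh) and 4.57 (Pgam1), and the order of the genes depended on single libraries. The Pgam1 ratio, on 7 reads at 5 mM, ran from 2.07 without the first 25 mM library to 6.33. Pkm was at 4.45 (3.31 to 5.44 with 1 library left out) and Eno1 at 4.15 (3.13 to 4.96), but Eno1 was at 2.07 when peaks with a near-identical copy elsewhere, its promoter among them, were left out. Over the 8 genes the adjusted exact p was 0.114 for all but Pgam1 (0.30).

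The totals were also counted against the reads in peaks. H3K18La member reads per 10000 in peaks were 2.92, 2.42 and 1.68 at 5 mM and 4.06, 2.60 and 2.17 at 25 mM, and the groups overlapped (ratio 1.26, exact permutation p = 0.50). By gene, the ratio then fell below 1 for Aldoc (0.979), Tpi1 (0.923), Gapdh (0.778) and Eno2 (0.964). For H3K27Ac they were 6.55 and 6.97, then 10.6 and 8.59, and did not overlap (ratio 1.42, exact permutation p = 0.333).

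**Figure D4:**
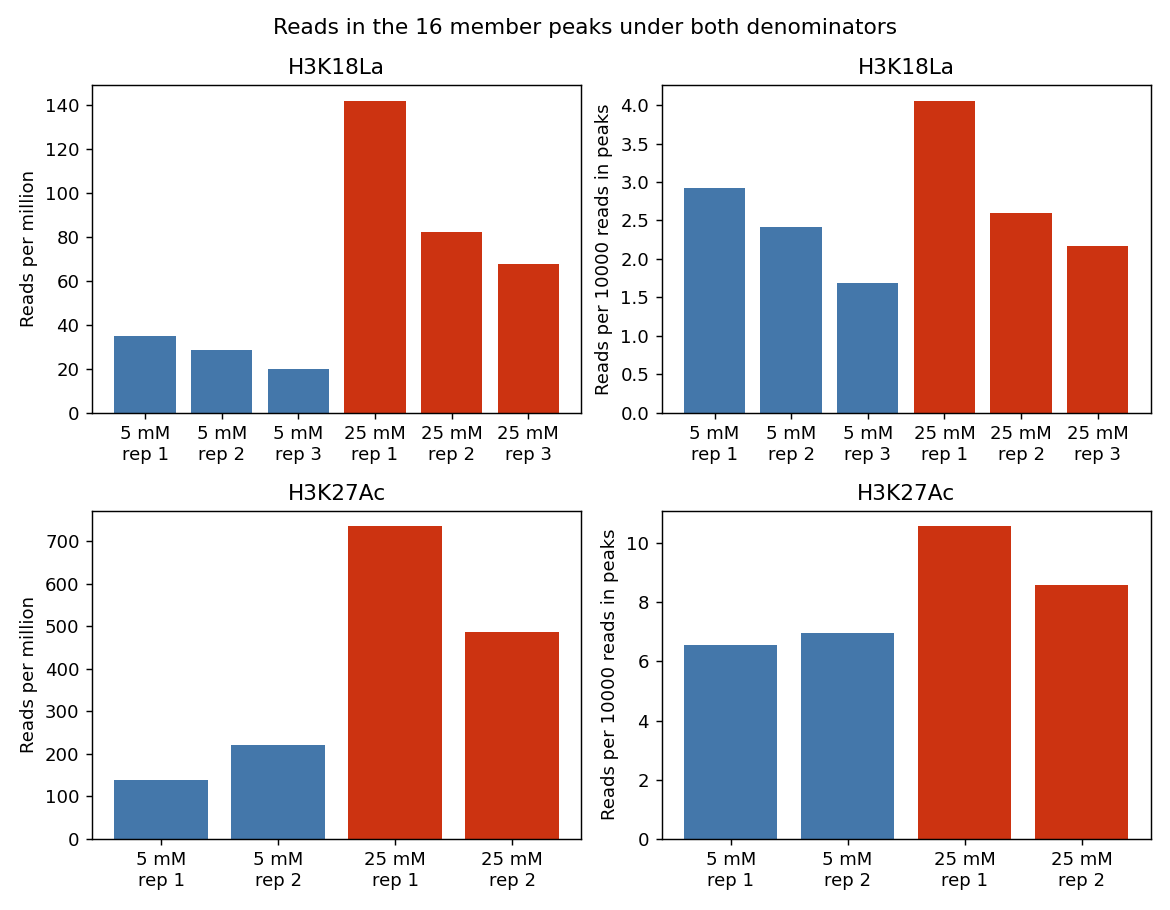
Reads in the 16 member peaks of each library, in reads per 1000000 (left) and per 10000 reads in peaks (right), for H3K18La (top) and H3K27Ac (bottom); each bar is 1 library. On the left every 25 mM bar exceeds every 5 mM bar, and on the right this holds for H3K27Ac only.

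The balance between promoter and other member peaks was compared as well. The mean log2(RPKM + 0.5) of promoter peaks minus that of the others was 0.40 ± 0.38 (SD, n = 3) at 5 mM and 0.14 ± 0.13 (n = 3) at 25 mM for H3K18La, with overlapping groups (exact permutation p = 0.30), and 0.41 ± 0.089 and 0.63 ± 0.14 (n = 2 each) for H3K27Ac (exact permutation p = 0.333). The H3K27Ac groups did not overlap, so that p is the smallest possible. The H3K18La difference of -0.26 depended on the settings, at -0.41 with peaks of a mean of at least 1 RPKM (exact permutation p = 0.10), -0.55 with a pseudocount of 0.1 and -0.17 with 1. It was -0.080 without the third 5 mM library and -0.46 without the second.

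The rest of the pathway was described at the strongest promoter peak of each gene. H3K18La was called higher for 4 of 7 fitted upper glycolysis genes, 1 of 2 other lower glycolysis genes and 5 of 9 lactate and pyruvate genes, and lower for none, against 5 of the 8 members and 33.3% of all promoter peaks fitted. The medians were 1.40, 1.19, 1.24 and, for the members, 1.26. Gpi1, the glucose phosphate isomerase, had the largest upper glycolysis change (1.72 ± 0.40, limma adjusted p = 0.00679) and Pfkm, a phosphofructokinase, the smallest (-0.23 ± 0.63, adjusted p = 0.785). Pgk1, the phosphoglycerate kinase, was at 1.27 ± 0.44 (adjusted p = 0.0425) and Bpgm, which makes bisphosphoglycerate, at 1.12 ± 0.48 (adjusted p = 0.0854).

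Ldha, the lactate dehydrogenase subunit that favours lactate, had the largest H3K18La change of the 9 lactate and pyruvate genes fitted. Its promoter went from 0.789 ± 0.501 RPKM (SD, n = 3) to 5.61 ± 3.59 (n = 3), a change of 2.19 ± 0.50 (SE, limma adjusted p = 0.00685), and its H3K27Ac changed by 2.34 ± 0.50 (adjusted p = 0.000328). Slc16a1, a monocarboxylate transporter, was next in H3K18La at 2.17 ± 0.58 (limma adjusted p = 0.0141), a gap far smaller than the SE. The smallest of the lactate and pyruvate list on the log2(RPKM + 0.5) scale was Slc16a8, also a monocarboxylate transporter, at 0.069 ± 0.58 (limma adjusted p = 0.929). Pdha1, at 0.071 ± 0.50, was not set apart from it. H3K27Ac was called higher for 5 of 7, 2 of 3 and 6 of 11 genes of the same lists and for all 8 members, against 57.0% of all promoter peaks fitted. Without the filter on low values the H3K18La counts were 5 upper glycolysis genes, 0 other lower glycolysis genes, 2 lactate and pyruvate genes and 3 members, where 2914 of all 17144 promoter peaks were called. For H3K27Ac 0 genes of any of them were called, as for 0 of all 108253 peaks (limma, 31013 at an unadjusted p under 0.05).

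The non-member promoters most like the mean profile of the 8 members over the 10 libraries were those of Dnajb1, Gm16008, Tmem170, Zfand5 and Klhl21 (Pearson r of 0.998, 0.998, 0.997, 0.996 and 0.996). This is a description over libraries that share mark, glucose level and depth, and the median r of all 14554 other promoters was 0.882.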

How the data were processed

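CUT&Tag reads of 10 libraries were aligned by the authors to GRCm38, and consensus peaks from MACS were annotated with ChIPseeker 1.34.1. The methods describe a merge of the peaks of both marks for the explants, but the number of peaks equals that of H3K18La peaks merged over retinal ages, so which set was deposited is not settled here. Promoters in the file run from 1000 bases before to 500 after a start. The deposited values are RPKM. All non-zero values were whole multiples of 1 read within 0.01, from which reads were recovered. GEO's protocol text names pA-MNase and an H3K9me3 antibody where the study's methods name pA-Tn5 and H3K27Ac, and the sample titles were followed. A second deposited table, with the authors' edgeR 3.40.2 fold changes and p-values, was not used.

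The main test was limma 3.58.1 (R 4.3.3) with a mean-variance trend on log2(RPKM + 0.5), each mark alone, for peaks with a mean of at least 1 RPKM, and Benjamini-Hochberg adjustment over all peaks fitted. The script was tested on simulated data. Locus totals and promoter contrasts used exact two-sided permutation tests. Copies were found with blastn 2.17.0 (at least 95% identity over 100 bases). Alternatives were other pseudocounts, filters, scalings, voom, a stricter threshold, no trend, a replicate block and leaving out each library. The members, gene lists and tests were chosen with earlier results of these data known. Named genes were the 8 members, Ldha, the largest and smallest H3K18La change of each pathway list and the 5 promoters most like the members. Slc16a1 and Pdha1, next to the extremes of their list, were added after their values were seen. The cell marker lists were rod, cone, bipolar, Muller glia, pigment epithelium, microglia and endothelium. C1qa, the only microglial marker with a promoter peak, and the other single markers given were named after their values were seen.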

Additional observations from a re-analysis of the deposited data

How the results depend on the processing

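Scaled to the reads in peaks, the median over all peaks was 0.03 (H3K18La) and -0.22 (H3K27Ac), the member medians were 0.24 and 0.39, and 0 member peaks were called in both marks. Centred on the median peak, the member medians were 0.46 and 0.94, again with 0 calls. With reads in peaks H3K18La turned negative at the promoters of Eno2 (-0.031), Tpi1 (-0.094) and Gapdh (-0.32), at the Pkm 5′ UTR (-0.094) and at the Eno1 intergenic peak (-0.27, and -0.43 for H3K27Ac), and the locus ratio fell below 1 for Aldoc (0.979), Tpi1 (0.923), Gapdh (0.778) and Eno2 (0.964). Centring turned Gapdh (-0.10) and the Eno1 intergenic peak (-0.21). Without the filter on low values 5 member peaks were called for H3K18La and 0 for H3K27Ac (18390 and 0 of all 108253 peaks), and at a threshold of 0.01 the counts were 3 and 6 (12370 of 65614 and 9840 of 72442 peaks). The cause was not tested.

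Leaving out 1 library gave 4 to 8 H3K18La calls with a median of 1.04 to 1.64, and 0 to 15 H3K27Ac calls with a median of 1.29 to 1.94. The locus ratios were then 2.69 to 4.02 and 2.71 to 4.41. The deviations of same-numbered libraries were close to uncorrelated (r from 0.013 to 0.029, and from -0.033 to 0.017 for other pairs). With few H3K18La reads per peak and 2 H3K27Ac libraries per level, this cannot show whether the numbers pair the libraries. With a replicate block 7 H3K18La and 0 H3K27Ac member peaks were called (23918 and 7897 of all peaks), the H3K18La calls at the Eno2 promoter (adjusted p = 0.0512) and the Pkm 5′ UTR (0.0510) being lost. voom on recovered reads called 12 and 15 (29676 of 65614 and 25420 of 72442 peaks). The interaction called 0 member peaks under every alternative run. The strongest promoter peak of each gene, an alternative chosen after seeing the data, gave medians of 1.26 and 1.61. H3K18La depth was low, with a median of 2 to 13 reads per member promoter at 5 mM.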

Other observations

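Among the cell type marker lists, H3K18La was called higher at all 7 fitted rod promoters (median change 2.48), 1 of 4 cone promoters (1.30), 0 of 3 Muller glia promoters (0.77), 1 of 2 pigment epithelium promoters (1.41) and 0 of 1 microglial promoter (1.03), where 33.3% of all fitted promoter peaks were called. The 2 endothelial promoters went opposite ways, Cldn5 by -1.80 ± 0.78 (SE) and Cdh5 by 0.36 ± 0.53, with a median of -0.72 and 0 called. No bipolar promoter was strong enough to be fitted. For H3K27Ac the calls were 7 of 7 rod promoters (2.11), 1 of 3 cone (1.13), 4 of 4 bipolar (1.64), 2 of 3 Muller glia (1.33), 1 of 2 pigment epithelium (0.88) and 0 of 2 endothelial promoters (-0.92), and the microglial promoter was not fitted. Bipolar Cabp5, Grm6 and Trpm1 (0.829, 0.892 and 0.886 RPKM at 5 mM) and cone Pde6c (0.686) were fitted for H3K27Ac only through their 25 mM values. For H3K18La this held for Gnat1, Arr3, Rlbp1, Best1 and Cdh5, while Opn1sw and Cldn5 were fitted through their 5 mM values. Of all fitted promoter peaks 57.0% were called for H3K27Ac, and without the filter on low values 0 promoters of these lists were. For H3K18La without that filter 6 rod, 1 cone and 0 pigment epithelium promoters were called, with 2914 of all 17144 promoter peaks.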
